A study of Mus musculus with 6 samples.

Results

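The genes described here handle iron in mouse CD8+ T cells: 10 genes for iron uptake, storage, export and its control, chosen by symbol from 55487 genes in the deposited tables. They are Tfrc, Slc11a2 and Steap3 (uptake), Fth1, Ftl1 and Ncoa4 (storage and release from storage), Slc40a1 (export), and Aco1, Ireb2 and Fbxl5 (regulation). The cells, cytotoxic lymphocytes of C57BL/6 mice, received 5 mM itaconate (an acid that activated macrophages make) or NaCl for 48 h, and each group has 3 RNA-seq libraries. The comparison is itaconate against NaCl control, with no allele or other agent named in the labels. Age, sex and how the cells were activated are not named there either. Whether the replicates are separate animals or cultures is not stated, so the p-values cover the spread of these libraries, which may be technical.

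Iron enters T cells mainly bound to transferrin, which the transferrin receptor (Tfrc) carries into endosomes, where the reductase Steap3 and the transporter DMT1 (Slc11a2) pass it to the cytosol. Iron that is not used is kept in ferritin, a shell of heavy (Fth1) and light (Ftl1) chains, from which the cargo receptor Ncoa4 releases it by delivering ferritin to lysosomes. Ferroportin (Slc40a1) exports iron. When iron is scarce, the iron regulatory proteins IRP1 (Aco1) and IRP2 (Ireb2) bind a short RNA hairpin, the iron-responsive element (IRE). An IRE near the start of an mRNA then blocks its translation, as for both ferritin chains and ferroportin, and IREs in the 3′ untranslated region (UTR) protect Tfrc mRNA from decay. Fbxl5, a ubiquitin ligase subunit that senses iron, removes IRP2. IRP1 with an iron-sulfur cluster is the cytosolic aconitase, and dividing T cells are known for high Tfrc.

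The hairpin letters are shown first because their place in the mRNA differs between Tfrc and the ferritin chains. Transcripts of GENCODE M21 (GRCm38) were searched for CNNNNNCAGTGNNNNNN, on the transcript strand only. The 5 bases before the loop had to pair with the 5 after it (G-T pairs allowed), and the lowest-numbered protein-coding transcript of each gene was used. Each 30-base window below is written 5′ to 3′ with the 6 loop letters in capitals.
Ftl1, 5′ UTR, chr7:45459778-45459807, minus strand: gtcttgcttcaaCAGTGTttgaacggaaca
Fth1, 5′ UTR, chr19:9982732-9982761, plus strand: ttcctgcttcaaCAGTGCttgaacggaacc
Slc40a1, 5′ UTR, chr1:45925464-45925493, minus strand: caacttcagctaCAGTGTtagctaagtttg
Tfrc, 3′ UTR, match 1, chr16:32631219-32631248, plus strand: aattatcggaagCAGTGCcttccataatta
Tfrc, 3′ UTR, match 2, chr16:32631598-32631627, plus strand: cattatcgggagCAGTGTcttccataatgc
Tfrc, 3′ UTR, match 3, chr16:32631663-32631692, plus strand: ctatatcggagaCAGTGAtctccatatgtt
Tfrc, 3′ UTR, match 4, chr16:32631710-32631739, plus strand: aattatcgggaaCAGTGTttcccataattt

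The Ftl1 and Fth1 windows shared 26 of 30 bases, and the 4 Tfrc windows shared 18 to 25 with each other. Between the ferritin and the Tfrc windows 9 to 13 bases were identical. All these counts include the C and the letters CAGTG, which the search required of every window. In Ftl1 and Fth1 the loop began 90 and 99 bases into 5′ UTRs of 253 and 224 bases. The 4 Tfrc loops lay between bases 895 and 1386 of a 3′ UTR of 2458 bases, 491 bases from first to last. Among 19523 protein-coding genes with a 5′ UTR, 21 (0.108%) held a match there, and among 2875 with a 5′ UTR within 1.2-fold of the length of that of Ftl1, 4 did (0.139%). A 3′ UTR match was held by 100 of 19698 genes (0.508%), and by 21 of 1716 (1.22%) with a 3′ UTR within 1.2-fold of the length of that of Tfrc. Tfrc was the 1 gene with more than 1 match in its 3′ UTR. No letters of this form were found in the UTRs of Slc11a2, Aco1, Ireb2, Fbxl5, Ncoa4 or Steap3 in the transcripts searched, which says only that these exact letters are absent there.

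**Figure D1:**
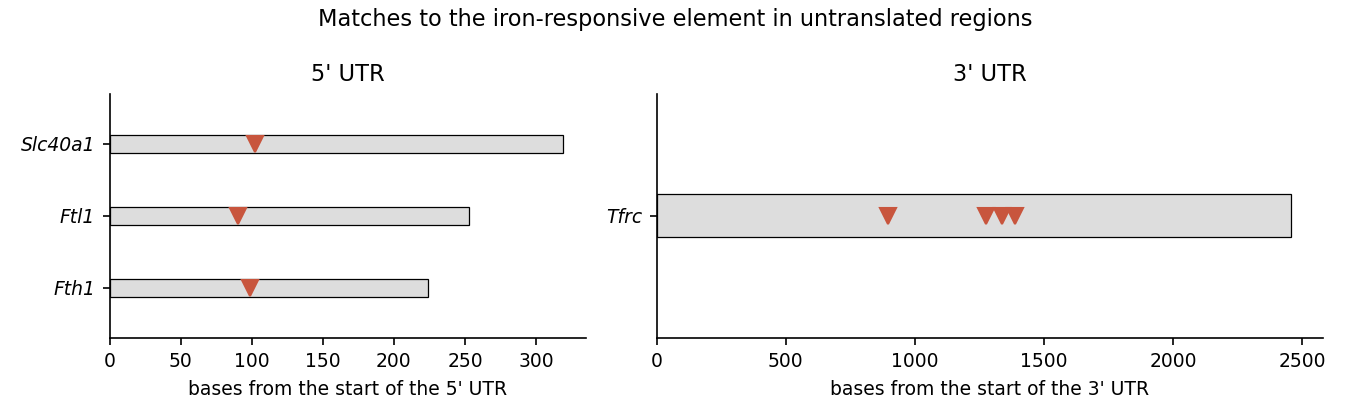
Position of each match (triangle) along the 5′ UTR of Slc40a1, Ftl1 and Fth1 (left) and the 3′ UTR of Tfrc (right), in bases from the start of the UTR, with the grey bar as long as the UTR. The ferritin matches lie 90 and 99 bases in, and the 4 Tfrc matches between bases 895 and 1386.

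Libraries held between 18280217 and 31643408 expected counts. Gene length minus effective length was 258.6 bases in control replicate 1 and 229.2 to 239.0 in the others. In CPM (counts scaled to library size with TMM factors), the sum of 10 T cell markers was 2696 to 2765 for control and 2882 to 2938 for itaconate, with 1 marker (Cd8a, 472 to 526 against 630 to 659) higher and 1 (Cd5, 128 to 152 against 103 to 116) lower by the edgeR test. Cd3e lay at 168 to 192 and Cd4 at 1.998 to 5.79 over all 6 libraries. Of 13 macrophage and monocyte markers, 12 averaged under 1 CPM, and the list summed to 2.18 to 2.64 CPM in control and 3.16 to 4.16 in itaconate libraries. All 10 erythroid markers found averaged under 1 CPM (sums of 1.04 to 1.45 and 0.343 to 4.55), and none of either list was at 0 in every library. In the neutrophil list, Ly6g was at 0 throughout and the sums ran from 0 to 3.24 in control and from 0.0555 to 13.3 in itaconate libraries, the highest in itaconate replicate 3 (Mpo 9.39 CPM). The B cell list summed to 12.2 to 19.4 CPM in control and 10.2 to 22.4 in itaconate libraries, and the dendritic cell list to 1.79 to 3.14 and 1.89 to 3.60, with Siglech at 0 in all. The part of these cells in the results was not tested.

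With itaconate the mRNA for iron import through transferrin fell and both ferritin mRNAs rose. Tfrc was lower by 35.3%, Ftl1 was higher by 27.1% and Fth1 by 13.7%, and the other 6 members tested did not pass. The call of Fth1 held in only 10 of 17 alternative settings, described below. These 10 include the sums of ferritin genes with their copies, which could not change Fth1 because its copy had no counts. Of 9 members tested, 3 (1 lower, 2 higher) passed an adjusted p of 0.05, beside 12.0% of all 12350 genes tested (5.36% lower, 6.68% higher). Slc40a1 had too few reads to be tested. In CPM, 5 of the 9 (Tfrc, Ftl1, Fth1, Ireb2 and Fbxl5) had groups without overlap, beside 31.2% of all genes tested. The median log2 fold change of the 9 was 0.11, and that of all genes tested was 0.01. The members were proposed with earlier results of these data known, so these counts are a description.

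Tfrc mRNA was measured at 784, 742 and 742 CPM in the 3 control libraries, here and below in the order of their replicate numbers, and at 471, 490 and 506 CPM with itaconate. Every itaconate library lay below every control library, with no value between 506 and 742. The means were 756 ± 24.1 and 489 ± 17.4 CPM (SD, n = 3), and the log2 fold change was -0.63 ± 0.047 (SE, edgeR adjusted p 4.3e-06). Ranked by size, it was decrease number 6 of the 2213 genes averaging 100 CPM or more (0.271% of them). By the same ranking Ftl1 was increase number 33 (1.49%). On the per-length scale Tfrc fell from 213 ± 8.835 to 134.5 ± 1.015 TPM (a gene's share of all transcripts, from reads divided by effective length), again without overlap. The gene (ENSMUSG00000022797) lies on chromosome 16 at 32608920 to 32632794, and no annotated gene overlaps it. In bulk RNA, fewer cells with an mRNA and less of it per cell cannot be told apart.

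Slc11a2, the transporter that takes iron across the endosomal membrane, was at 34.3, 34.2 and 32.2 CPM in control and 32.1, 33.7 and 32.3 CPM in itaconate libraries. The groups overlapped, and the log2 fold change was -0.04 with a 95% interval of -0.18 to 0.11 (edgeR adjusted p 0.782). Its TPM, at 18.2, 23.1 and 15.1 in control and 13.4, 13.7 and 15.8 in itaconate libraries, was less even. TPM divides by the authors' estimate of mean transcript length over the gene's isoforms, of which Slc11a2 has 8 in the annotation. Those lengths were 2647, 2109 and 2811 bases in control and 3198, 3105 and 2669 in itaconate libraries, 1.52-fold from lowest to highest. Means were 2523 ± 367 and 2991 ± 282 bases (two-sided exact permutation p 0.2, 0.6 adjusted over 10 members, where 6 libraries in equal groups allow no p below 0.1). With effective length modelled, the log2 fold change of Slc11a2 was -0.32 and still did not pass (edgeR adjusted p 0.228).

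Steap3, the endosomal reductase that prepares iron for transport, was low in all libraries. Its values were 1.52, 2.37 and 1.46 CPM in control and 3.41, 1.44 and 2.49 CPM in itaconate libraries. Itaconate replicate 2 lay below all 3 control libraries and itaconate replicate 1 above all others. The log2 fold change of 0.48 had a 95% interval from -0.20 to 1.17 (edgeR adjusted p 0.373), which spans 0. It ran from 0.17 without itaconate replicate 1 to 0.74 without itaconate replicate 2.

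Ftl1, the light chain that helps ferritin lay down its iron core, was the most abundant member per length. It stood at 833, 867 and 946 CPM in control and at 1080, 1140 and 1143 CPM in itaconate libraries, and the groups did not overlap. From 882 ± 58.0 to 1121 ± 35.2 CPM (SD, n = 3), the log2 fold change was 0.35 ± 0.053 (SE, edgeR adjusted p 0.000859). In TPM the rise was from 1519 ± 40.6 to 1837 ± 27.1, also without overlap. When the trend of counts with transcript length and GC content was removed in each library, the log2 fold change was 0.22 and the adjusted p 0.000726. Ftl1 (ENSMUSG00000050708) lies on chromosome 7 at 45457944 to 45459884.

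Reads of ferritin genes can be shared with their retrocopies. In the reference 7 other genes matched the Ftl1 transcript over at least 200 bases at 90% identity or more, and 4 of them had no counts in any library. Together they held 58 to 101 counts per library, at most 0.426% of Ftl1 plus its copies. The 1 such copy of Fth1 had no counts. Adding the counts of copies of any annotated class to each parent was an alternative chosen after seeing the data. It left the log2 fold changes at 0.35 and 0.19. With so few counts in the copies, this sum could hardly move them and is no separate support.

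Fth1, the heavy chain, which oxidises iron as it enters the shell, was at 277, 267 and 265 CPM in control and 303, 295 and 321 CPM in itaconate libraries. No itaconate library fell within the control range, although the gap between control replicate 1 and itaconate replicate 2 was small. From 270 ± 6.55 to 307 ± 13.3 CPM (SD, n = 3), the log2 fold change was 0.19 ± 0.047 (SE, edgeR adjusted p 0.0197). In TPM, at 620, 543 and 491 in control and 628, 535 and 618 in itaconate libraries, the groups overlapped. The call was lost with limma on log2(TPM + 1) (adjusted p 0.562), with effective length modelled (0.231) or with the length and GC trend removed (0.151). It was lost too without control replicate 2 (0.109), control replicate 3 (0.0631) or itaconate replicate 3 (0.115). Fth1 (ENSMUSG00000024661) lies on chromosome 19 at 9980598 to 9985098.

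Ncoa4, the receptor that sends ferritin to lysosomes, was at 77.0, 73.55 and 68.8 CPM in control and 79.0, 75.7 and 82.5 CPM in itaconate libraries. The ranges touched, with itaconate replicate 2 below control replicate 1. The log2 fold change of 0.11 had a 95% interval from -0.01 to 0.24 (edgeR adjusted p 0.244). Slc40a1, the exporter ferroportin, had 1, 0 and 5 counts in control and 0, 0 and 4 counts in itaconate libraries. A count of 0 allows up to 0.147 CPM in control replicate 2 and up to 0.148 and 0.164 CPM in itaconate replicates 1 and 2, for counting error only. No fold change is given for Slc40a1 at this depth.

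**Figure D2:**
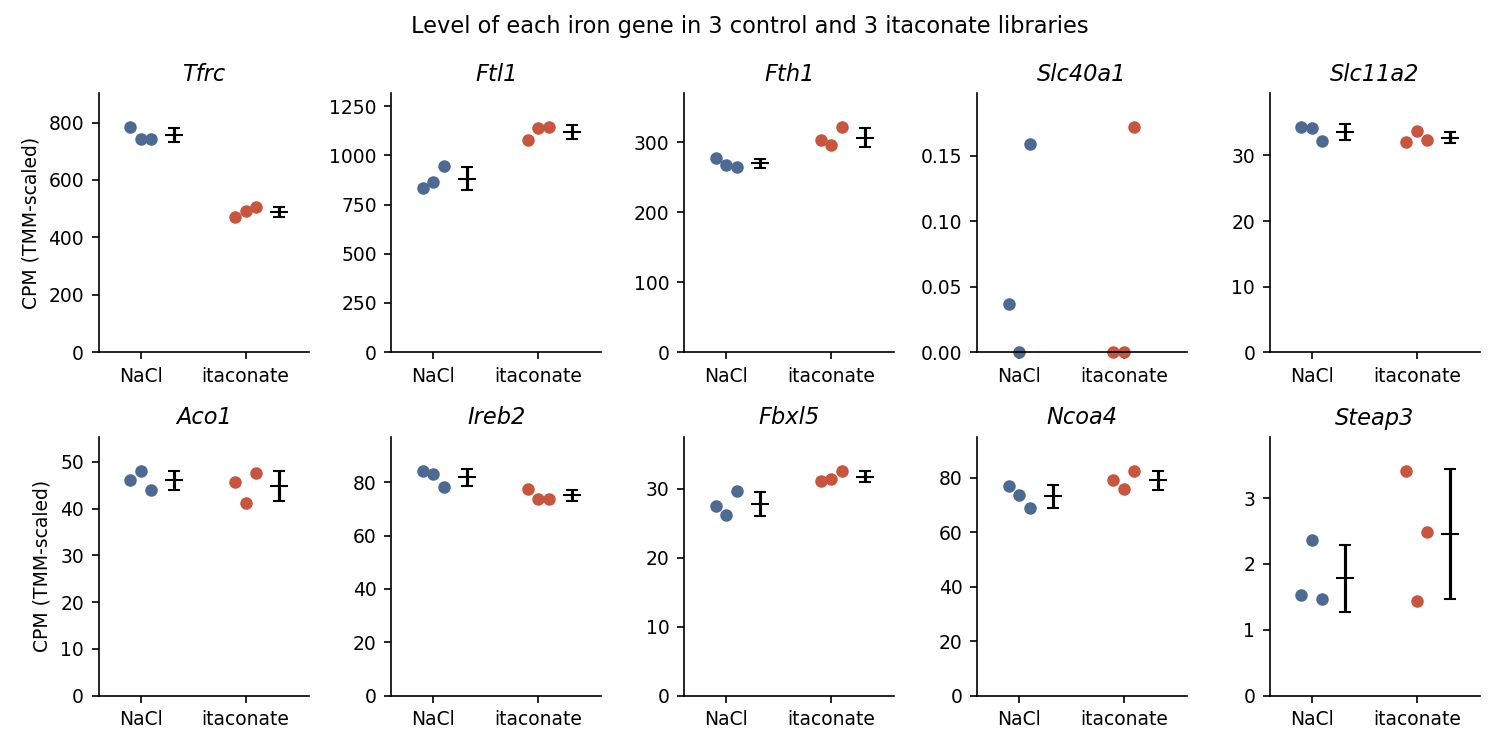
Level of each of the 10 genes in CPM (y axes start at 0) in the NaCl control and itaconate libraries, 1 point per library, with the mean and SD of 3 libraries beside the points of each gene tested. Tfrc has control points from 742 to 784 and itaconate points from 471 to 506, and both ferritin chains lie higher in each itaconate library than in any control library.

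Ireb2, which encodes IRP2, was at 84.3, 83.1 and 78.3 CPM in control and 77.5, 73.75 and 73.8 CPM in itaconate libraries. The lowest control value lay just above the highest itaconate value. The log2 fold change was -0.13 with a 95% interval from -0.24 to -0.01 before adjustment, and the edgeR adjusted p was 0.16. Aco1, which encodes IRP1, was at 46.1, 48.1 and 44.0 CPM in control and 45.7, 41.2 and 47.5 CPM in itaconate libraries, so the groups overlapped. Its log2 fold change of -0.04 had an interval from -0.18 to 0.11 (edgeR adjusted p 0.793).

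Fbxl5, the iron sensor that marks IRP2 for destruction, was at 27.5, 26.2 and 29.7 CPM in control and 31.2, 31.4 and 32.6 CPM in itaconate libraries. All 3 itaconate values were above all 3 control values, yet the log2 fold change of 0.19 ± 0.073 (SE) did not pass (edgeR adjusted p 0.113). It passed in 1 of 15 alternatives, with the length and GC trend removed, at 0.26 (adjusted p 0.0184). On the TPM scale the groups overlapped, control at 13.6 to 16.1 and itaconate at 13.8 to 17.9.

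**Figure D3:**
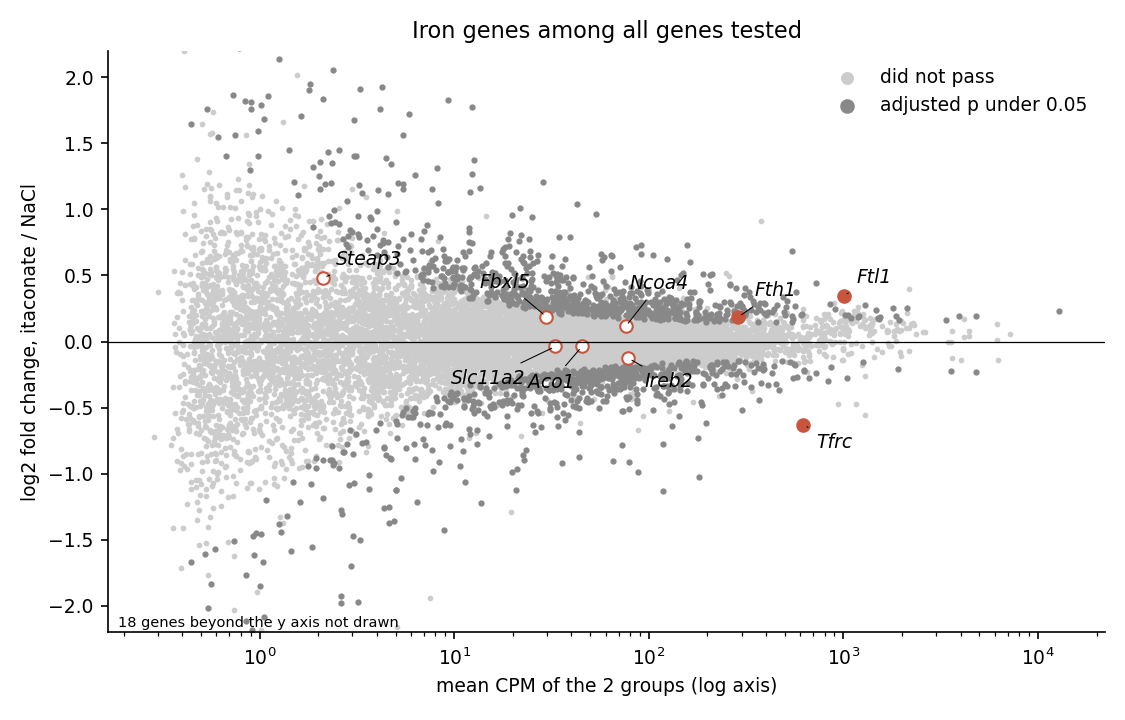
Log2 fold change, itaconate over NaCl, against mean CPM (log axis) for the genes tested, light grey where they did not pass and dark grey at an adjusted p under 0.05, with the 9 tested iron genes ringed in red and filled where they passed. Tfrc at -0.63 lies at the lower edge of the genes above 100 CPM and Ftl1 at 0.35 in their upper part, and 18 genes beyond the y axis are not drawn.

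Compared per length, Ftl1 led the members with 1519 TPM in control and 1837 TPM in itaconate cells, followed by Fth1 (551.5 and 594) and Tfrc (213 and 134.5). Ncoa4 came next at 34.1 and 37.1 TPM. In control cells Slc11a2 (18.8 ± 4.02 TPM), Ireb2 (18.7 ± 1.24), Aco1 (16.4 ± 1.43) and Fbxl5 (14.99 ± 1.26) followed. In itaconate cells the order was Ireb2 (16.35 ± 0.943 TPM), Fbxl5 (15.55 ± 2.09), Aco1 (15.2 ± 0.846) and Slc11a2 (14.3 ± 1.30). Among these 4, the 3 values of each gene overlapped those of its neighbour in both groups, although Ireb2 was above Aco1 in each of the 6 libraries. Steap3 at 0.880 and 1.17 TPM and Slc40a1 at no more than 0.0700 TPM in any library were lowest. Ftl1 was in place 122 of the 12350 genes tested by mean TPM, Fth1 in place 240 and Tfrc in place 840.

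The balance between uptake and storage mRNA was taken as Tfrc TPM divided by the sum of Ftl1 and Fth1 TPM. It was 0.105, 0.104 and 0.0994 in control and 0.0543, 0.0574 and 0.05435 in itaconate libraries. The 2 groups were far apart relative to their spread, at 0.103 ± 0.00305 and 0.05535 ± 0.00177 (SD, n = 3), a log2 difference of -0.89 (two-sided exact permutation p 0.1, the smallest possible, and 0.15 adjusted over 3 ratios). Summed ferritin mRNA was 2114, 2039 and 2057 TPM in control and 2455, 2352 and 2486 TPM in itaconate libraries. Tfrc TPM was lower, and this sum higher, in every itaconate library than in any control library. The groups of the ratio could therefore not overlap, so the ratio restates these changes and is no separate evidence.

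Neither the mRNA ratio of the ferritin chains nor that of the IRP pair differed by as much. The Ftl1 to Fth1 ratio was 2.41, 2.76 and 3.19 in control and 2.91, 3.396 and 3.02 in itaconate libraries, with overlap (log2 difference 0.17, two-sided exact permutation p 0.3). The difference was 0.07 without control replicate 1 (exact permutation p 0.6), 0.10 without itaconate replicate 2 (0.6) and 0.27 without control replicate 3 (0.1). Control replicate 1, the library with the largest difference between length and effective length, had the lowest value. The Ireb2 to Aco1 ratio was 1.114, 1.136 and 1.165 in control and 1.11, 1.102 and 1.014 in itaconate libraries, without overlap. Its log2 difference was -0.08 (two-sided exact permutation p 0.1, 0.15 adjusted over 3 ratios). In CPM its groups overlapped (exact permutation p 0.3).

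**Figure D4:**
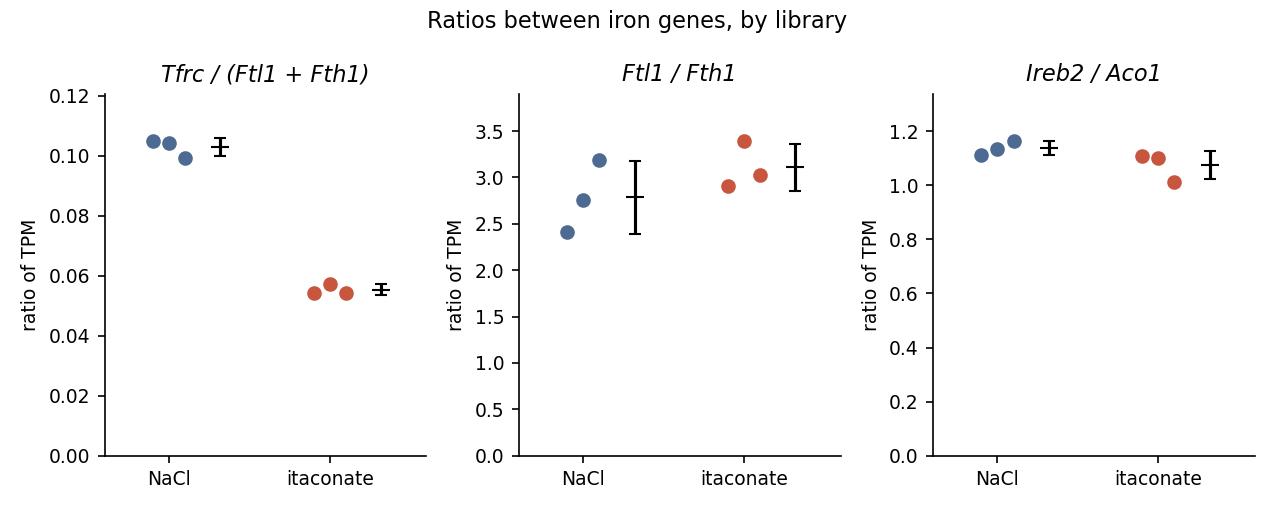
Ratios of TPM (y axes start at 0), 1 point per library, with the mean and SD of 3 libraries beside them. The ratio of Tfrc to both ferritin chains has control points from 0.0994 to 0.105 and itaconate points from 0.0543 to 0.0574, while the Ftl1 to Fth1 ratio overlaps between the groups.

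Estimated transcript lengths of the other members moved little with treatment. The spread between the highest and the lowest library was 1.25-fold for Fbxl5 and at most 1.09-fold for Tfrc, Ftl1, Fth1, Aco1, Ireb2, Ncoa4 and Steap3, while Slc40a1 (2.23-fold) had too few reads to estimate an isoform mix. Ftl1 alone had lengths without overlap between groups, all within a range of 1.43 bases (two-sided exact permutation p 0.1, 0.6 adjusted over 10 members). In effective length the groups of Ftl1 overlapped, and those of Ireb2 alone did not. For Tfrc they were 4732, 4668 and 4633 bases in control and 4603, 4482 and 4685 bases in itaconate libraries.

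**Figure D5:**
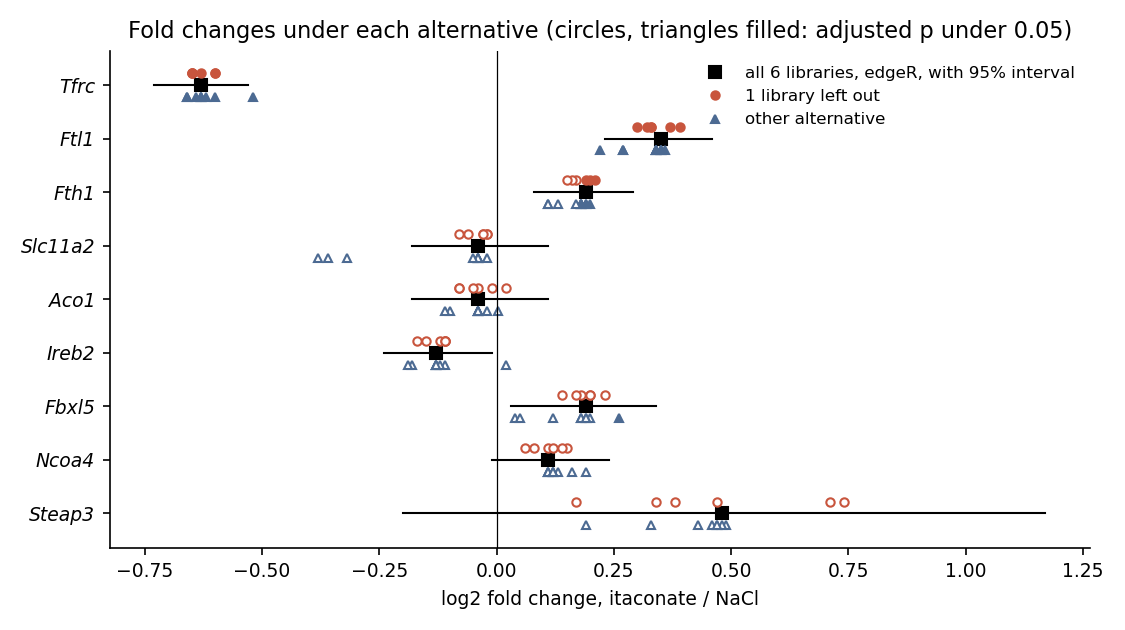
Log2 fold change of the 9 tested members with all 6 libraries (square, with its 95% interval), with 1 library left out (circles) and under the other alternatives (triangles), with circles and triangles filled where the adjusted p was under 0.05. Tfrc stays between -0.66 and -0.52 and Ftl1 between 0.22 and 0.39, all filled, while Fth1 is open in 7 of 17. For Ftl1 and Fth1 the triangles include sums with their copies, which held too few counts to move them.

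The counts of called genes in 4 lists outside the 10 members are given beside the 12.0% called over all genes tested, and nothing particular to a list is read from them. Among 28 iron and haem transport genes in the files, 16 were tested, 1 rose, 1 fell and 14 did not pass (12.0% over all genes), with a median log2 fold change of 0.04. Slc48a1, a haem transporter of endosomes and lysosomes, was at 45.3 ± 3.04 CPM in control and rose to 53.8 ± 1.77 CPM (edgeR adjusted p 0.023). Flvcr1, known as a haem exporter, fell from 51.7 ± 2.65 to 44.1 ± 2.79 CPM (adjusted p 0.0388). The call of Slc48a1 was lost without control replicate 2 (0.102), control replicate 3 (0.0898), itaconate replicate 2 (0.0519) or itaconate replicate 3 (0.105). That of Flvcr1 was lost without control replicate 1 (0.124), control replicate 2 (0.0721), itaconate replicate 2 (0.146) or itaconate replicate 3 (0.142). Other settings ended both calls too: removing the length and GC trend (0.0794 and 0.0662), modelling effective length (0.334 and 0.14), limma on log2(TPM + 1) (0.613 and 0.153) and, for Flvcr1, upper-quartile factors (0.0519). Slc48a1 passed in 7 and Flvcr1 in 6 of 15 alternatives. The cytosolic iron chaperones Pcbp1 and Pcbp2 had log2 fold changes of 0.06 each (adjusted p 0.442 and 0.44). Slc39a14, which imports iron not bound to transferrin, was at -0.05 (95% interval -0.22 to 0.12), and the mitochondrial iron importers Slc25a37 and Slc25a28 were at 0.02 and 0.18 (adjusted p 0.871 and 0.166).

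Of 17 tested genes of haem synthesis and breakdown, 1 rose, 1 fell and 15 did not pass (12.0% called over all genes, median of the list 0.07). Alas1, the rate-limiting enzyme of haem synthesis outside red cells, fell from 51.5 ± 5.28 to 41.7 ± 2.26 CPM (edgeR adjusted p 0.0203), and Clpx, a mitochondrial unfoldase that acts on the Alas enzymes, rose from 64.0 ± 3.51 to 75.55 ± 6.49 CPM (adjusted p 0.0377). Without control replicate 2 (0.103), itaconate replicate 1 (0.0599) or itaconate replicate 3 (0.0906) Alas1 did not pass. Clpx did not pass without control replicate 1 (0.0865), control replicate 2 (0.175), itaconate replicate 2 (0.137) or itaconate replicate 3 (0.17). Both also failed with effective length modelled (0.0526 and 0.107) and with limma on log2(TPM + 1) (0.0605 and 0.199), and passed in 9 and 8 of 15 alternatives. Fech, which inserts iron into haem, was at 19.7 ± 2.28 and 16.6 ± 1.80 CPM (adjusted p 0.175). Hmox1, which frees iron from haem, was at 11.3 ± 0.781 and 12.3 ± 1.47 CPM (adjusted p 0.559).

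Of 28 tested genes of iron-sulfur cluster assembly, 1 rose, 1 fell and 26 did not pass (12.0% called over all genes, median of the list 0.07). Fdxr, which feeds electrons to the mitochondrial assembly line, was at 35.5 ± 1.73 CPM in control and rose to 44.5 ± 3.36 CPM (edgeR adjusted p 0.00999). Ndor1, a reductase of the cytosolic assembly line, fell from 41.4 ± 1.32 to 34.8 ± 1.64 CPM (adjusted p 0.0225). Fdxr did not pass without control replicate 2 (0.0667) or itaconate replicate 2 (0.0555). Ndor1 did not pass without control replicate 1 (0.0566), control replicate 3 (0.0506), itaconate replicate 2 (0.0761) or itaconate replicate 3 (0.101). With effective length modelled (0.073 and 0.255) or limma on log2(TPM + 1) (0.139 and 0.239) neither passed, and Fdxr passed in 10 and Ndor1 in 8 of 15 alternatives. The scaffold gene Iscu (0.14, edgeR adjusted p 0.351) did not pass.

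Every gene with hairpin letters was then read from the same fit. Of the 21 genes with a 5′ UTR match 14 were tested, of which 4 rose and 2 fell, and without the 2 ferritin chains these were 2 and 2 of 12 (33.3% called, beside 12.0% of all genes tested, at a median of 0.01). Among these were Ppp1r1b (2.735 ± 0.580 to 4.47 ± 0.271 CPM), Serpina3g (32.3 ± 0.684 to 20.01 ± 3.25 CPM) and Malt1 (138 ± 7.87 to 115 ± 5.13 CPM). Ppp1r1b encodes a phosphatase inhibitor, Serpina3g a serine protease inhibitor of lymphocytes, and Malt1 a paracaspase of antigen-receptor signalling, and all 3 were named after their values were seen (edgeR adjusted p 0.0362, 0.000634 and 0.00604). Of 74 tested genes with a 3′ UTR match 6 rose and 3 fell (12.2% called), and Tfrc had the smallest adjusted p of them. Whether these matches act as IREs was not tested, and nothing particular to either set is read from these shares.

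Of 17 tested genes that act on the turnover of iron mRNAs and proteins, 1 rose, 2 fell and 14 did not pass (12.0% called over all genes, median of the list 0.00). Zfp36l1, which binds AU-rich elements and promotes mRNA decay, fell from 75.3 ± 4.35 to 59.0 ± 2.26 CPM (edgeR adjusted p 0.00211). Rc3h1, the RNA-binding protein Roquin-1, fell from 57.3 ± 2.67 to 48.2 ± 1.37 CPM (adjusted p 0.0161), and the ubiquitin ligase Nedd4 rose from 92.1 ± 4.04 to 107 ± 6.99 CPM (adjusted p 0.0296). Zc3h12a, the RNase Regnase-1 that cleaves Tfrc mRNA in its 3′ UTR, was at 18.8, 18.9 and 19.15 CPM in control and 20.5, 20.4 and 21.9 CPM in itaconate libraries (adjusted p 0.289). Rc3h1 did not pass without control replicate 2 (0.0827), itaconate replicate 2 (0.0585) or itaconate replicate 3 (0.0739). Nedd4 did not pass without control replicate 2 (0.133), control replicate 3 (0.101), itaconate replicate 1 (0.108) or itaconate replicate 3 (0.0955). With effective length modelled (0.0694 and 0.113) or limma on log2(TPM + 1) (0.212 and 0.402) neither Rc3h1 nor Nedd4 passed. With the length and GC trend removed, the log2 fold change of Rc3h1 was -0.11 (0.196). Each passed in 8 of 15 alternatives. Zfp36l1 passed in 14 of 15 and missed with limma on log2(TPM + 1) (0.0518).

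The genes most like Tfrc over the 6 libraries, by root-mean-square difference of log2 CPM centred on the control mean among 8041 genes, were Zfp395 (0.046), Bcl2l11 (0.075), Slc2a1 (0.085), Tmtc4 (0.088) and Trib2 (0.088). Slc2a1, the glucose transporter GLUT1, was at 169.5 ± 3.63 and 115 ± 12.45 CPM, and Bcl2l11, the death-promoting protein BIM, at 34.0 ± 3.24 and 21.8 ± 1.84 CPM. Those most like Ftl1 were Acot7 (0.028), Chpf2 (0.033), Ifngr1 (0.038), Vasp (0.041) and Anxa11 (0.043), with log2 fold changes from 0.30 to 0.37. These lists describe likeness in these libraries and carry no test.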

How the data were processed

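For each of the 6 libraries the authors deposited a gene table whose headers are those of RSEM. Its expected counts are unnormalised estimates of reads per gene, and its TPM values are scaled by effective length, both per the file headers. Bowtie 0.12.2, mm8 and mm10 are listed without roles, per the submitters' processing notes. The sources used here do not give the RSEM version, annotation or strand setting. Genes on the opposite strand of Ftl1, Slc11a2 and Fbxl5 had at most 62 counts in a library.

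Expected counts were rounded (5.99% to 6.93% of genes per library lay further than 0.001 from a whole number) and tested with edgeR 4.0.16 in R 4.3.3 (quasi-likelihood, robust, two-sided; TMM factors; filterByExpr minimum count 10 and minimum total 15, 12350 genes kept), with Benjamini-Hochberg adjustment over all of them and a threshold of 0.05. CPM are TMM-scaled. Intervals of fold changes come from this fit. Alternatives used DESeq2 1.42.0, limma 3.58.1, other filters and factors, offsets for length and GC content (mgcv 1.9.3), and each library left out. Ratios and lengths had exact permutation tests. Copies were found with blastn 2.17.0. Positions and sequences come from GENCODE M21, matched by Ensembl identifier.

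Members and lists were chosen with earlier results of these data known. Named are all members, up to 3 risers and 3 fallers per list, genes fixed by name, and the 5 genes most like Tfrc and Ftl1. Libraries of 1 group differed by a chi-square of 4.84 to 16.9 per gene, and none was counted as a duplicate. Some genes that this rule takes are not reported here.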

Additional observations from a re-analysis of the deposited data

How the results depend on the processing

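Tfrc and Ftl1 kept direction and call in all 15 and 17 alternatives (log2 fold changes of -0.66 to -0.52 and 0.22 to 0.39, adjusted p up to 0.00384 and 0.0273), and Fth1 passed in 10 of 17. For both ferritin chains the 17 include the sums with their copies, which held too few counts to move a call. The number of members called was 3 or 2 throughout. Over all genes, 1487 changed (55.5% higher), 2419 with the replicate number as a replicate block, 567 with effective length modelled, 308 by limma on log2(TPM + 1) (39.6% higher) and 324 on log2(TPM + 0.1) (38.9% higher). With 1 library left out the range was 726 (control replicate 2 omitted) to 1400 (control replicate 3 omitted), with 896 and 835 without itaconate replicates 2 and 3. Same-numbered libraries deviated together with correlations of 0.113, 0.0305 and 0.0034, and differently numbered ones with -0.093 to 0.0664. The labels name no pairing, so the main fit took none, and these values do not settle whether the numbers are pairs. The block changed no member's call. The Tfrc to ferritin log2 difference was -0.94 in CPM. The number of members whose length did not overlap was 1 without control replicate 1, 4 without itaconate replicate 3 and 2 in the other such fits.

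Direction turned, for genes that did not pass, in Aco1 (0.0027 with the length and GC trend removed, -0.08 to 0.02 without 1 library, turned without itaconate replicate 2), Ireb2 (0.02) and Pcbp1 (-0.05) with that trend removed, Slc39a14 (-0.10 to 0.03, turned without itaconate replicate 2) and Slc25a37 (-0.02 to 0.04, turned without itaconate replicate 1). It turned by limma on TPM at either pseudocount in Slc25a37 (-0.03), Pcbp1 (-0.01) and Pcbp2 (-0.02). Depth limits Slc40a1, with at most 5 counts in a library.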
